A study of Mus musculus with 10 samples.

Results

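Cells of an epithelium are held together by a set of contacts whose genes are often read together as a measure of epithelial identity. The 41 genes described here make up those contacts and the machinery around them: cadherins and cell adhesion (3 genes), membrane proteins of the tight junction (10), its cytoplasmic plaque (3), the desmosome (9), cell polarity and apical traffic (8), and epithelial splicing and transcription factors (8). They were found by symbol among the 23479 gene entries of the deposited table, and all 41 were present. RNA came from 4T1-T, a clone grown from 1 cell of the mouse mammary carcinoma line 4T1, so every library shares the background of that clone. The growth medium was DMEM with 2 sera, fetal bovine and fetal calf. The cells of each group had been infected to carry a short hairpin RNA: shRenilla, against Renilla luciferase, a gene that mouse cells lack, was the control, shSerpine2-1 and shSerpine2-2 were aimed at Serpine2, and shSlpi-1 and shSlpi-2 at Slpi. Serpine2 and Slpi encode secreted inhibitors of serine proteases, and the series they were profiled in concerns heterogeneity of breast cancer and vascular mimicry. No group without a hairpin was analysed here. Each of the 5 groups had 2 libraries, A and B, and since nothing in the labels says that these came from separate cultures, the p-values measure the spread between libraries, which may be technical.

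In an epithelium, E-cadherin joins neighbouring cells at adherens junctions, claudins and occludin seal the space between them at tight junctions, and desmosomes tie the keratin filaments of one cell to those of the next. Polarity complexes and apical transport then keep the upper and lower membranes of the cell distinct. In mammary carcinoma these genes are commonly lowered when cells take on a mesenchymal state, in which Zeb and Snail family repressors bind E-box sequences in the promoters of Cdh1 and of other junction genes.

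Values are normalized counts, which are reads scaled to a common library size, from 15877431 to 24026620 reads per library. A level of 0 leaves room for up to 3 reads, or 2.30 to 3.48 normalized counts depending on the library, and this floor covers counting error only. Both targets were lowered by their own hairpins, Serpine2 from 3256 and 3145 in shRenilla to between 128 and 514 over its 4 libraries, and Slpi from 1189 and 1313 to between 60.9 and 147. The other inhibitor was lower too with 3 of the 4 hairpins: Serpine2 was at 1342 and 1331 with shSlpi-1 and at 1553 and 1731 with shSlpi-2, and Slpi was at 326 and 414 with shSerpine2-1 but at 1111 and 1218 with shSerpine2-2. The shSlpi-2 libraries stood apart from the rest, with 6.88% and 6.91% of reads in the ribosomal RNA entry Rn45s against 0.881% to 1.96% in the other 8 libraries. Slpi results that were called with both hairpins but not for shSlpi-1 alone are therefore given for shSlpi-1 as well.

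The clone carried an epithelial program beside strong expression of some mesenchymal genes. All 6 epithelial markers checked (Cdh1, Epcam, Krt7, Krt8, Krt18 and Krt19) were above a mean of 10, with a summed level of 21599 to 22199 in shRenilla, 25533 to 27021 with the Serpine2 hairpins and 27257 to 31422 with the Slpi hairpins. Of 16 mesenchymal genes and repressors of Cdh1, 12 were above that mean, led by Vim, the intermediate filament vimentin, at a mean of 67651 over all libraries. Those below it were Twist2, at 0 in every library, Cdh2 (N-cadherin) at 0 to 4.73, Snai2 at 0 to 2.32 and Prrx1 at 0 to 9.67. None of 7 endothelial markers reached a mean of 10. Of 7 leukocyte markers Cd68 reached it, and of 7 fibroblast markers Pdgfra did, with Ptprc, Cd3e, Itgam, Csf1r, Col1a1, Col3a1, Dcn and Lum all below. In bulk RNA, fewer cells that express a gene and less of its RNA per cell cannot be told apart.

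In shRenilla cells the tested junction genes ran from 1.75 (Grhl1) to 2041 (Cdh1) normalized counts per kilobase of exon. Cdh1, which encodes E-cadherin, was the highest of the 41 per kilobase. The next were the scaffold gene Tjp1 at 915, Lsr at 649, Epcam at 595 and Cldn12 at 557, and the libraries of each of these 5 genes did not overlap those of the next. Of the 9 desmosome genes, 6 lay between 125 (Pkp3) and 223 (Pkp2) per kb, where the libraries of Dsp (210.0) overlapped those of both Pkp2 and Ppl (199), and Dsc2 (26.3), Pkp1 (21.3) and Evpl (9.91) lay lower. Grainyhead-like Grhl2, a transcription factor that activates Cdh1 and claudin genes in epithelia, was at 60.6 per kb, far above its relative Grhl1. 6 genes had a mean below 10 normalized counts over all libraries and were not tested: Cdh3 (P-cadherin), Cldn1, Tjp3, Ap1m2 (a basolateral sorting adaptor), Ehf (an ETS factor) and Trp63 (the basal cell factor p63). Their levels over the 10 libraries ran from 3.12 to 17.4 for Cdh3, 0.766 to 6.32 for Cldn1, 2.11 to 15.2 for Tjp3, 0 to 6.97 for Ap1m2, 0 to 3.87 for Ehf and 0 to 6.77 for Trp63. The remaining 35 were tested, of which Crb3 had the lowest mean, 10.3.

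**Figure D1:**
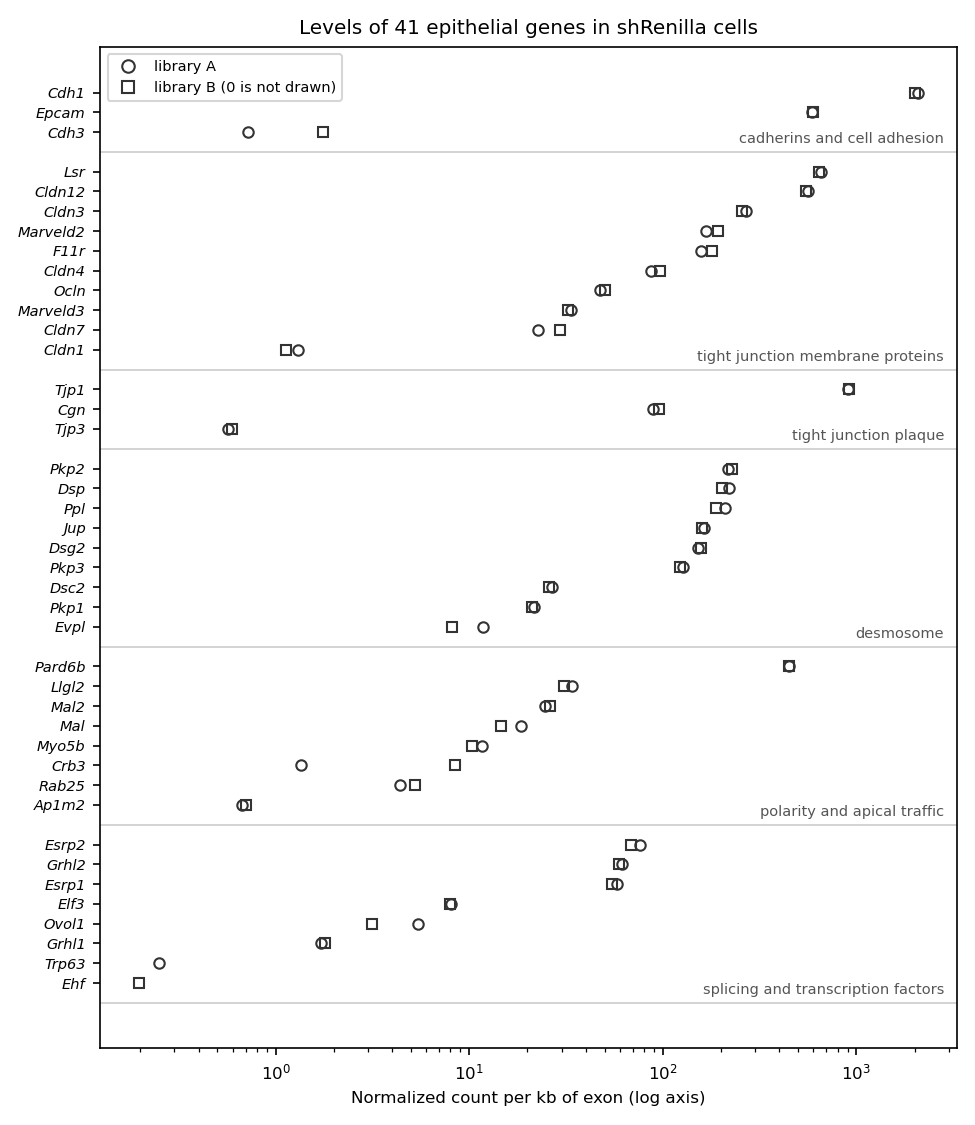
Level of each of the 41 genes in the 2 shRenilla libraries, as normalized counts per kilobase of exon on a log axis, grouped by role; circles are library A, squares library B, and levels of 0 (Ehf in library A, Trp63 in library B) are not drawn. Cdh1 lies highest and the 6 genes below the mean of 10 (Cdh3, Cldn1, Tjp3, Ap1m2, Trp63, Ehf) lie toward the left edge.

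The 6 promoters printed here are all of genes that rose in a comparison with shRenilla. RefSeq promoter windows of 300 bases (250 before to 50 after an annotated start, build GRCm38.p6) were matched for 22 of the 41 genes. Windows were not matched for Cdh1, Cdh3, Ppl, Dsc2, Dsg2, Esrp1, Esrp2, Pkp1, Pkp2, Pkp3, Evpl, Llgl2, Ehf, Ovol1, Grhl2, Myo5b, Trp63, Marveld3 and Mal2. In the 6 windows printed here, each 5′ to 3′ on the strand of its gene, capitals mark the E-box CACCTG on either strand (CAGGTG on the other) and the Grainyhead-type motif AACNGGTT on either strand.
Epcam, chr17:87635729-87636028, plus strand: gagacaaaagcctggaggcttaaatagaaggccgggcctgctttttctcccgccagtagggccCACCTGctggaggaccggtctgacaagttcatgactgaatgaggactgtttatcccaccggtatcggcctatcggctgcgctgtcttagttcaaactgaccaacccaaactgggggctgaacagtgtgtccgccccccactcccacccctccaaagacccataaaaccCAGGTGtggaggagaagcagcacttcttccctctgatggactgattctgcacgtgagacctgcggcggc
Cldn3, chr5:134985964-134986263, plus strand: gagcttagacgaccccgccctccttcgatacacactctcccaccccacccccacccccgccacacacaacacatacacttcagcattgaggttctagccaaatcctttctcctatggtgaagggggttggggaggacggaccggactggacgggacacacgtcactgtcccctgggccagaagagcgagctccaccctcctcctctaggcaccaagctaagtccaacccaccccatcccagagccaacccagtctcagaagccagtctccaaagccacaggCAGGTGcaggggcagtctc
Cldn4, chr5:134946885-134947184, minus strand: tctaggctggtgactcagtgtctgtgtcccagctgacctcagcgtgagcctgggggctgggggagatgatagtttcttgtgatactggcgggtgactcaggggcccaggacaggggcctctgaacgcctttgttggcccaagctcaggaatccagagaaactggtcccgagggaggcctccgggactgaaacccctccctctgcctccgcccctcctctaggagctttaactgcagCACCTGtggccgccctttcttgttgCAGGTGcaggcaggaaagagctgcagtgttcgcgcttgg
Rab25, chr3:88548230-88548529, minus strand: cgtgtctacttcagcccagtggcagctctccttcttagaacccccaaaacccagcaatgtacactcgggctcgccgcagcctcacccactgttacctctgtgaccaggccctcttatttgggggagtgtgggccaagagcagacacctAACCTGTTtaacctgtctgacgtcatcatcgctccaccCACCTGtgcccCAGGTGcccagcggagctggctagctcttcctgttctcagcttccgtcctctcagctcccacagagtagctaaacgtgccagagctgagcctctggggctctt
Elf3, chr1:135258423-135258722, minus strand: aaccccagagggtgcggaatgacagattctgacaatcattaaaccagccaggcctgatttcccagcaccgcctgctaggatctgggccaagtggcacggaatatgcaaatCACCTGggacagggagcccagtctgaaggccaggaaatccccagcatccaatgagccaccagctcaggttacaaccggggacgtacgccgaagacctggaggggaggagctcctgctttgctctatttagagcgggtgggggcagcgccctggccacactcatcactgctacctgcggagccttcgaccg
Cgn, chr3:94786433-94786732, minus strand: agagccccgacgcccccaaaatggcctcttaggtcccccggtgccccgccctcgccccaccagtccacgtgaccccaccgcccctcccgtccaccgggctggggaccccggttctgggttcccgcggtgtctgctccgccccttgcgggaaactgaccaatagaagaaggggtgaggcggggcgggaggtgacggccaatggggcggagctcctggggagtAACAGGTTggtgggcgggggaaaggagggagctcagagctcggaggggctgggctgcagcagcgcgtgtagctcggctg

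The E-box was present in 15 of the 22 genes with a window (68.2%), against 20.2% of all 32851 windows in the table and 20.7% of the 9062 tested genes that have one. Counted from the annotated start, the E-boxes begin at positions -187 and -19 in Epcam, -14 and 12 in Cldn4, and -64 and -53 in Rab25. Cldn3 holds it once, at position 32, and Elf3 once, at position -140. Among the windows not printed, those of Lsr, Crb3 and Ap1m2 held 4 E-boxes each. Of these genes Lsr rose with Slpi lowered, Crb3 was not called and Ap1m2 was not tested. Mal and Grhl1, which rose in a comparison with shRenilla, held no E-box. The Grainyhead-type motif AACNGGTT was found in Cgn and Rab25, 2 of 22 genes, against 2.09% of all windows and 2.33% of tested genes with a window, and no base was shared between its matches and the E-boxes. The shorter motif ACCGGT was in Epcam alone of the 22 (2.33% of all windows and 4.08% of tested genes with one) and the full motif AACCGGTT in none (0.146% and 0.287%). The ETS motif CCGGAAG was in 4 of the 22 (18.2%), Cldn12, Cldn7, Crb3 and Lsr, against 8.86% of all windows and 20.7% of tested genes with one, so its share was near that of the tested genes. A match is a run of letters and was not tested as a binding site.

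With Serpine2 lowered, 14 of the 35 tested genes rose against shRenilla and 0 fell (limma, adjusted p under 0.05), where 10.7% of all 12299 tested genes rose and 10.8% fell. At an unadjusted p under 0.05, limma had 2 of the 35 lower, and voom on the recovered reads also called 0 lower. With Slpi lowered, 22 rose and 1, the plakin gene Ppl, fell, where 16.5% of all tested genes rose and 18.3% fell. The median log2 fold change of the 35 was 0.29 with the Serpine2 hairpins and 0.48 with the Slpi hairpins, beside -0.0014 and -0.0055 over all tested genes. Changes were moderate in size: among genes that rose, they ran from 1.18-fold (Dsg2) to 1.97-fold (Mal) with Serpine2 lowered and from 1.22-fold (Lsr) to 2.62-fold (Elf3) with Slpi lowered. 13 genes rose in both comparisons, which share their 2 shRenilla libraries, as did 7.91% of all tested genes: Cdh1, Epcam, Ocln, Cldn3, Marveld2, Cgn, Dsp, Dsg2, Mal, Mal2, Pard6b, Esrp1 and Elf3.

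Read library by library, 18 of the 35 genes were higher in all 8 knockdown libraries than in both shRenilla libraries (10.8% of all tested genes were) and 0 were lower in all 8 (11.9%). For the 4 Serpine2 libraries alone, 21 genes lay above both control libraries (18.8% of all tested genes) and 1, Jup, lay below (18.9%). For the 4 Slpi libraries, 22 lay above (19.5%) and 2, Tjp1 and Ppl, below (20.6%). The 18 included Dsc2, Pkp1, Grhl1, Rab25 and Lsr, which did not pass the test with the Serpine2 hairpins. Of these, Grhl1 and Rab25 met the limit for testing only through knockdown libraries. Leaving out control library A reduced the Serpine2 count from 14 to 9, with Cldn3, Dsg2, Elf3, Esrp2 and Marveld2 no longer called, and leaving out control library B reduced it to 11, without Cldn3, Elf3 and Esrp2. The Slpi count fell to 20 without either control library (Cldn7, Dsc2 and Marveld3 lost without A, and Dsc2, Marveld3 and Myo5b without B) and stayed at 23 without shSlpi-1 library A, with Esrp2 in place of Marveld3. When the 2 libraries of each line were averaged and each of the 5 lines was 1 unit, with the single control line assumed to vary like the others, limma called 0 members and 0 of all 12299 genes in either comparison, and 8 and 18 members were at an unadjusted p under 0.05.

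**Figure D2:**
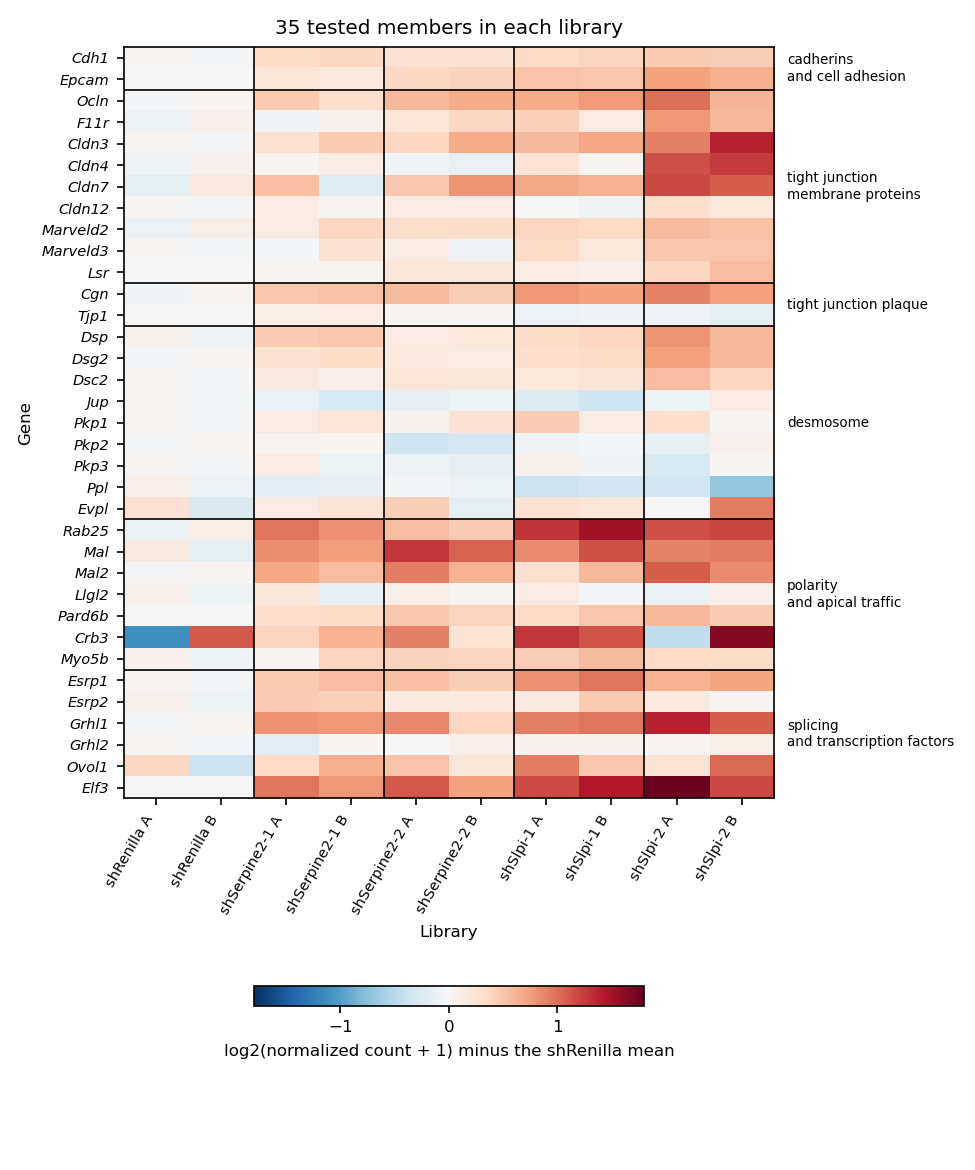
Each of the 35 tested genes in each of the 10 libraries, coloured by log2(normalized count + 1) minus the mean of the 2 shRenilla libraries, with genes grouped by role and black lines between groups. In 18 of the 35 rows all 8 knockdown libraries are redder than both controls, and the Crb3 row differs between the 2 control libraries (2.11 and 13.2).

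Cdh1 and Epcam, the tested adhesion genes of the cell surface, rose with each of the 4 hairpins. Cdh1 was at 9519.8 and 9155 in the shRenilla libraries, 11907 and 12034 with shSerpine2-1, 11135 and 11157 with shSerpine2-2, 11979 and 12296 with shSlpi-1 and 12918 and 12698 with shSlpi-2. All 8 knockdown libraries lay above both controls, and the log2 fold change was 0.31 ± 0.038 (SE) for Serpine2 (limma adjusted p = 6.3e-05) and 0.42 ± 0.038 for Slpi (adjusted p = 6.2e-07). Epcam, an adhesion molecule of epithelial cells that associates with claudins, was at 1300.1 and 1313 in shRenilla, 1498 and 1469.8 with shSerpine2-1, 1688 and 1751 with shSerpine2-2, 1858 and 1844 with shSlpi-1, and 2159 and 2043 with shSlpi-2. The 5 lines did not overlap for Epcam and kept the order shRenilla, shSerpine2-1, shSerpine2-2, shSlpi-1, shSlpi-2. Its log2 fold change was 0.29 ± 0.047 for Serpine2 (adjusted p = 0.00049) and 0.59 ± 0.047 for Slpi (adjusted p = 1.5e-07). Cdh3, which lies 46.1 kb from Cdh1 on chromosome 8, stayed below the test limit with 3.12 to 17.4 normalized counts.

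Among the 9 tested membrane proteins of the tight junction, 3 rose with Serpine2 lowered (Ocln, Cldn3, Marveld2) and 8 with Slpi lowered, all except Cldn12. Occludin (Ocln) was at 201.2 and 212 in shRenilla, 287 and 253 with shSerpine2-1, 309 and 327 with shSerpine2-2, 329 and 353 with shSlpi-1, and 413 and 317 with shSlpi-2. Tricellulin (Marveld2), which seals the corners where 3 cells meet, was at 565 and 649, 669 and 794, 752 and 761, 795 and 777, and 899.9 and 873 in the same order. Neither gene had a knockdown library at or below its controls, although the lower shSerpine2-1 library of Marveld2 exceeded the higher control by little. Log2 fold changes were 0.50 ± 0.10 and 0.76 ± 0.10 for Ocln (adjusted p = 0.0025 and 3.1e-05) and 0.29 ± 0.073 and 0.46 ± 0.073 for Marveld2 (adjusted p = 0.0093 and 0.00014). The 2 genes lie 43.2 kb apart on the minus strand of chromosome 13.

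The claudins, the strands that set the permeability of the tight junction, did not move alike. Cldn3 was at 339 and 322 in shRenilla, 399 and 457 with shSerpine2-1, 434 and 528 with shSerpine2-2, 498 and 538 with shSlpi-1 and 618 and 866 with shSlpi-2. It lay above the controls in all 8 libraries and rose in both comparisons, by 0.45 ± 0.11 (adjusted p = 0.0093) and 0.90 ± 0.11 (adjusted p = 1.6e-05) on the log2 scale. Its neighbour Cldn4, 39.3 kb away on the opposite strand of chromosome 5, was at 157 and 175 in shRenilla, 169 and 182 with shSerpine2-1, 161 and 152 with shSerpine2-2, 197 and 172 with shSlpi-1 and 372 and 399.6 with shSlpi-2. Cldn4 was high in the 2 shSlpi-2 libraries, and the other 8 libraries lay together between 152 and 197. Its rise of 0.68 ± 0.10 with the Slpi hairpins (adjusted p = 8.2e-05) rested on shSlpi-2: the line alone was 1.21 above shRenilla, shSlpi-1 alone gave 0.15 (adjusted p = 0.44), and the call was lost without both shSlpi-2 libraries. Cldn7, the partner of Epcam, was at 44.2 and 57.3, 73.5 and 43.0, 71.1 and 88.1, 81.7 and 78.04, and 116 and 108 in the same order of lines. The shSerpine2-1 libraries of Cldn7 lay on both sides of the controls, and the Serpine2 difference of 0.40 ± 0.20 did not pass the test (adjusted p = 0.16), while the Slpi difference of 0.90 ± 0.20 did (adjusted p = 0.0021). For Cldn7 with shSlpi-1 alone the difference was 0.65 and did not pass (limma adjusted p = 0.056). Cldn12 ranged from 2263 to 2945 over all libraries and passed in neither comparison.

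The other membrane proteins that rose with Slpi lowered were F11r, Marveld3 and Lsr. F11r, the junctional adhesion molecule A, was at 420.4 and 476 in shRenilla, 432 and 470.2 with shSerpine2-1, 521 and 578 with shSerpine2-2, 599.8 and 494 with shSlpi-1, and 768 and 676 with shSlpi-2. The shSerpine2-1 libraries overlapped the controls and those of shSlpi-2 lay highest, and the log2 fold change was 0.49 ± 0.089 for Slpi (adjusted p = 0.00050) against 0.15 ± 0.089 for Serpine2 (adjusted p = 0.24). For F11r with shSlpi-1 alone it was 0.28 and did not pass (limma adjusted p = 0.068). Marveld3, a relative of occludin and tricellulin, was at 111 and 107, 106 and 130.0, 119 and 104, 138 and 124, and 153 and 154 in the same order, and Lsr, which recruits tricellulin to the corners of cells, was at 1419 and 1399, 1437 and 1456, 1618 and 1628, 1540.4 and 1509, and 1835 and 2063. The Slpi differences were 0.38 ± 0.13 for Marveld3 (adjusted p = 0.027) and 0.29 ± 0.052 for Lsr (adjusted p = 0.00042), and neither was called without the shSlpi-2 libraries. Of the exon bases of Lsr, 43.5% are shared with the antisense gene Gm4673, and as it is not given whether the reads were counted by strand, reads of the 2 genes cannot be told apart.

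In the plaque below the membrane, the adaptor gene of cingulin rose in both comparisons and the scaffold gene Tjp1 passed in neither. Cgn was at 538 and 573 in shRenilla, 775 and 798 with shSerpine2-1, 824 and 759 with shSerpine2-2, 954 and 915 with shSlpi-1, and 1027 and 928 with shSlpi-2. Its 8 knockdown libraries all lay above both controls, and the log2 fold change was 0.51 ± 0.063 for Serpine2 (adjusted p = 7.3e-05) and 0.78 ± 0.063 for Slpi (adjusted p = 2.0e-07). Tjp1, the scaffold that joins claudins to actin, was at 7105 and 7193 in shRenilla, 7768 and 7849 with shSerpine2-1, 7313 and 7250.4 with shSerpine2-2, 6662 and 6893 with shSlpi-1, and 6873 and 6315 with shSlpi-2. The Serpine2 libraries lay above the controls and the Slpi libraries below them, yet neither difference passed the test (0.077 ± 0.042 and -0.10 ± 0.042 on the log2 scale, adjusted p = 0.21 and 0.084).

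Of the 9 desmosome genes, 2 rose with Serpine2 lowered (Dsp and Dsg2), and with Slpi lowered 3 rose (these with Dsc2) and 1 fell (Ppl). Desmoplakin (Dsp), the linker to keratin filaments, was at 2110.2 and 1947 in shRenilla, 2788 and 2839.7 with shSerpine2-1, 2256 and 2322 with shSerpine2-2, 2547 and 2641 with shSlpi-1 and 3524 and 3053 with shSlpi-2. Desmoglein 2 (Dsg2) was at 1260.0 and 1302, 1555 and 1606, 1453 and 1417, 1587 and 1635, and 2132 and 1944 in the same order. Both genes were above their controls in all 8 libraries and highest with shSlpi-2. Dsp rose by 0.32 ± 0.055 (adjusted p = 0.00076) and 0.52 ± 0.055 (adjusted p = 2.7e-06) on the log2 scale, and Dsg2 by 0.23 ± 0.051 (adjusted p = 0.0040) and 0.50 ± 0.051 (adjusted p = 1.9e-06). The desmocollin gene Dsc2 was at 141 and 137, 155 and 149, 162 and 161, 158 and 163, and 205 and 183, above its controls in all 8 libraries, and passed with Slpi lowered (0.34 ± 0.10, adjusted p = 0.016) but not with Serpine2 lowered (0.17 ± 0.10, adjusted p = 0.25). The Slpi call for Dsc2 was lost without either control library and without the 2 shSlpi-2 libraries.

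Ppl, which encodes periplakin, ran the other way. It was at 1453 and 1290.2 in shRenilla, 1188 and 1231 with shSerpine2-1, 1337 and 1279.6 with shSerpine2-2, 1046 and 1081 with shSlpi-1, and 1078 and 844 with shSlpi-2. All 4 Slpi libraries lay below both controls, and the fall was -0.44 ± 0.078 on the log2 scale (adjusted p = 0.00034), against -0.12 ± 0.078 with Serpine2 lowered (adjusted p = 0.28). Plakoglobin (Jup) and the plakophilin genes Pkp1, Pkp2 and Pkp3, which connect the desmosomal cadherins to desmoplakin, and the envoplakin gene Evpl passed in neither comparison, with log2 differences between -0.15 (Jup, Serpine2) and 0.34 (Evpl, Slpi). Jup ranged from 806 to 1143 over the 10 libraries and Pkp2 from 933 to 1264. Each passed for 1 line: Jup fell with shSlpi-1 (-0.30, adjusted p = 0.014) and Pkp2 with shSerpine2-2 (-0.33, adjusted p = 0.0028).

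**Figure D3:**
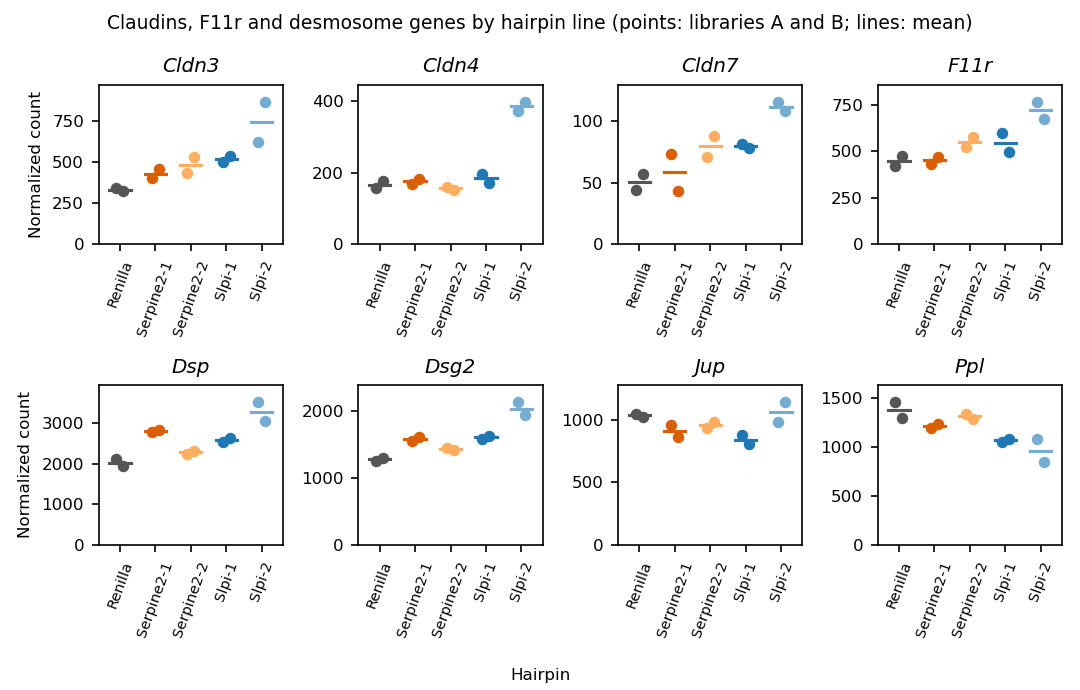
Normalized counts of 4 tight junction genes (upper row) and 4 desmosome genes (lower row) by hairpin line, each vertical axis starting at 0; points are libraries A and B and lines their mean. Cldn4 stands at 372 and 400 with shSlpi-2 and between 152 and 197 elsewhere, and Ppl is lowest with the Slpi hairpins.

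Of the 7 tested polarity and apical traffic genes, 3 rose with Serpine2 lowered (Mal, Mal2, Pard6b) and 5 with Slpi lowered (these with Rab25 and Myo5b). Mal, a membrane protein of apical transport vesicles, was at 51.6 and 40.8 in shRenilla, 82.4 and 77.8 with shSerpine2-1, 112 and 96.5 with shSerpine2-2, 83.7 and 103 with shSlpi-1, and 86.0 and 88.1 with shSlpi-2. Mal2, its relative in transcytosis, was at 72.7 and 77.1, 123 and 110.3, 143 and 116, 90.7 and 112, and 160.5 and 136 in the same order. No knockdown library of either gene overlapped the controls, and the log2 fold changes with Serpine2 and with Slpi lowered were close to each other, 0.98 ± 0.15 and 0.96 ± 0.15 for Mal (adjusted p = 0.00040 and 0.00017) and 0.70 ± 0.14 and 0.70 ± 0.14 for Mal2 (adjusted p = 0.0022 and 0.0010). For Mal2 with shSlpi-1 alone it was 0.43 and did not pass (limma adjusted p = 0.080). Pard6b, a subunit of the Par complex that sets the apical domain, was at 1528 and 1525 in shRenilla, 1888 and 1945 with shSerpine2-1, 2144 and 2022 with shSerpine2-2, 1959 and 2155 with shSlpi-1, and 2304 and 2089.8 with shSlpi-2. It rose by 0.39 ± 0.054 (adjusted p = 0.00014) and 0.48 ± 0.054 (adjusted p = 5.8e-06) on the log2 scale, with no overlap.

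Rab25, a small GTPase of apical recycling endosomes, was a low gene at 7.37 and 8.81 normalized counts in shRenilla, 16.7 and 15.1 with shSerpine2-1, 12.3 and 11.5 with shSerpine2-2, 21.2 and 25.0 with shSlpi-1, and 19.3 and 19.9 with shSlpi-2. Its lowest knockdown library was above both controls, and the difference passed with Slpi lowered (1.29 ± 0.29, adjusted p = 0.0023) but not with Serpine2 lowered (0.70 ± 0.29, adjusted p = 0.093). The shRenilla mean of Rab25, 8.09, was under the limit of 10, which the gene met only through the knockdown libraries. Myo5b, a motor that carries recycling vesicles to the apical membrane, was at 114 and 101, 110.3 and 143, 143 and 142, 146 and 159, and 138 and 135, with 1 shSerpine2-1 library between the controls. It rose with Slpi lowered (0.42 ± 0.13, adjusted p = 0.015), a call lost without control library B, and stood at 0.32 ± 0.13 with Serpine2 lowered (adjusted p = 0.084). Llgl2, which acts at the basolateral membrane, ranged from 142 to 180 and passed in neither comparison, and Crb3, the Crumbs protein of the apical membrane, passed in neither, at 2.11 and 13.2 in the 2 control libraries and 3.87 to 19.9 in the knockdown libraries.

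Of the regulators of epithelial identity, the splicing factor Esrp1 and the ETS factor Elf3 rose with every hairpin. Esrp1, which directs epithelial exon choice in transcripts such as those of Fgfr2 and Cd44, was at 367 and 346 in shRenilla, 493 and 522 with shSerpine2-1, 517 and 483 with shSerpine2-2, 628 and 693 with shSlpi-1, and 550.0 and 583 with shSlpi-2. Elf3 was at 17.9 and 17.6, 35.6 and 31.3, 39.5 and 29.9, 41.3 and 49.9, and 62.8 and 41.7 in the same order. In both genes all 8 knockdown libraries exceeded the controls, and log2 fold changes were 0.50 ± 0.071 and 0.78 ± 0.071 for Esrp1 (adjusted p = 0.00017 and 6.8e-07) and 0.89 ± 0.23 and 1.39 ± 0.23 for Elf3 (adjusted p = 0.010 and 0.00018). Esrp2 was at 329.8 and 296, 429 and 420.3, 350.3 and 355, 351 and 435, and 354 and 320.0, with a shSlpi-2 library between the controls. It passed with Serpine2 lowered (0.31 ± 0.091, adjusted p = 0.024) and not with Slpi lowered (0.21 ± 0.091, adjusted p = 0.081). By line, Esrp2 was called with shSerpine2-1 (0.44, limma adjusted p = 0.013) and with shSlpi-1 (0.32, adjusted p = 0.045). It was not called with shSerpine2-2 or shSlpi-2. Leaving out any 1 control or Serpine2 library ended the Serpine2 call.

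Grhl1 was at 9.48 and 9.92 in shRenilla, 17.8 and 17.4 with shSerpine2-1, 18.4 and 13.0 with shSerpine2-2, 19.2 and 19.8 with shSlpi-1, and 27.1 and 21.8 with shSlpi-2. No knockdown library reached down to the controls, but at this depth the difference passed with Slpi lowered (1.09 ± 0.28, adjusted p = 0.0066) and not with Serpine2 lowered (0.71 ± 0.28, adjusted p = 0.081), and with shSlpi-1 alone it was 0.94 ± 0.32 (adjusted p = 0.057). Grhl2, the more abundant member of that family, ranged from 459 to 561 over the 10 libraries, with log2 differences of -0.020 ± 0.072 and 0.064 ± 0.072 (adjusted p = 0.87 and 0.52). Ovol1, a repressor of mesenchymal genes, ranged from 11.02 to 30.3 and was at 0.43 ± 0.31 and 0.67 ± 0.31 (adjusted p = 0.34 and 0.10). Its exons overlap those of the opposite-strand pseudogene Gm31166 over 19.8% of their bases, and, apart from those of Lsr with Gm4673, other overlaps among the tested genes were at most 7.31% (Elf3 with Gm26642).

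**Figure D4:**
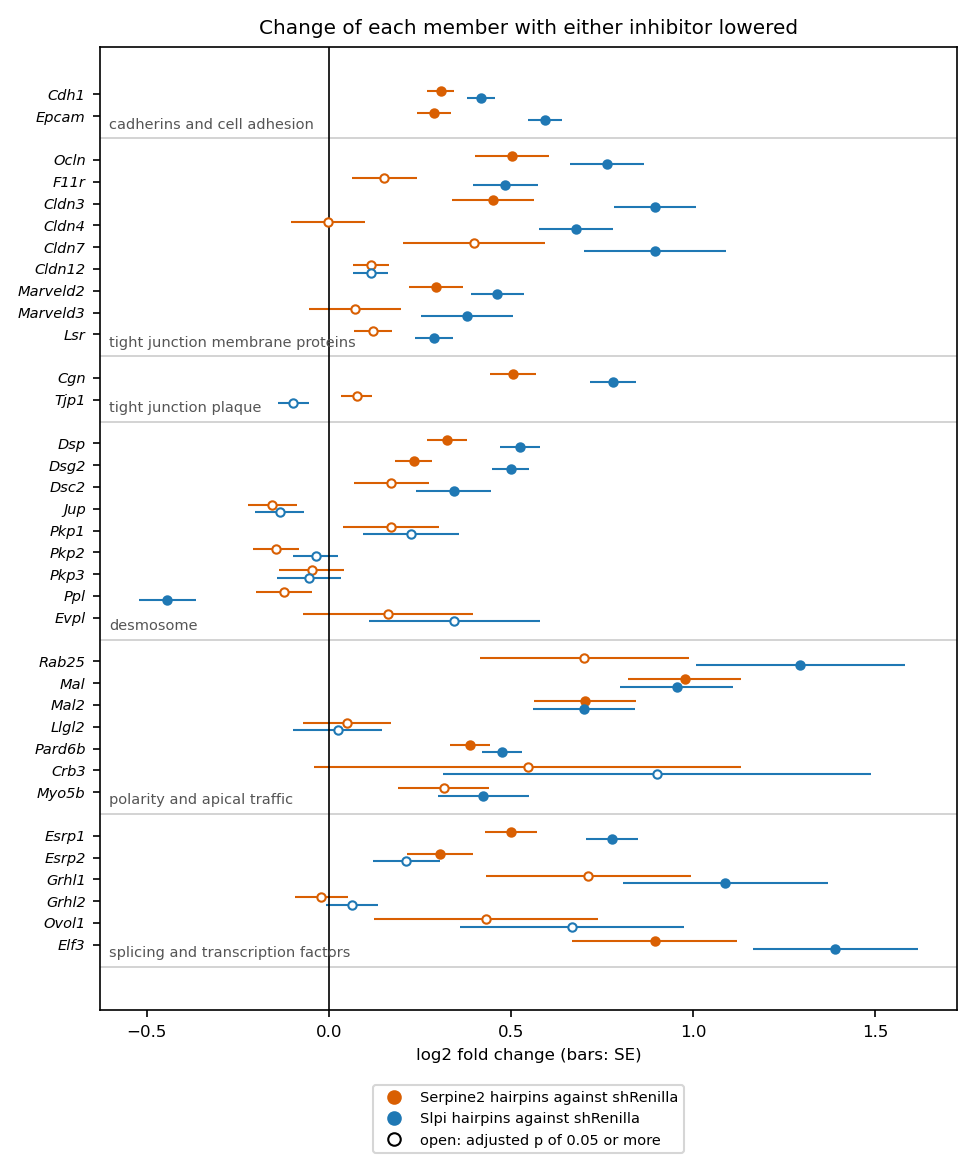
Log2 fold change against shRenilla of the 35 tested genes, by role; orange points are the 2 Serpine2 hairpins together, blue points the 2 Slpi hairpins together, bars are SE, and open points have an adjusted p of 0.05 or more. Most points lie to the right of 0, with Ppl at -0.44 with Slpi lowered the farthest to the left.

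Taken 1 line at a time against the shared shRenilla libraries, 12 genes rose and 0 fell with shSerpine2-1 (5.09% and 5.38% of all tested genes did, and limma had 1 of the 35 lower at an unadjusted p under 0.05), and 16 rose and 1, Pkp2, fell with shSerpine2-2 (14.2% and 13.4%, 27.5% in either direction). With shSlpi-1, 15 rose and 2, Jup and Ppl, fell (7.65% and 9.88%), and with shSlpi-2, 22 rose and 1, Ppl, fell (20.4% and 21.9%, 42.4% in either direction). 9 genes rose with each of the 4 hairpins, as did 1.95% of all tested genes: Cdh1, Epcam, Ocln, Cgn, Dsg2, Mal, Pard6b, Esrp1 and Elf3. They come from each of the 6 roles. Of the genes called over both Serpine2 hairpins, Cldn3 (0.37, limma adjusted p = 0.081) and Marveld2 (0.27, adjusted p = 0.053) did not pass with shSerpine2-1 alone. Dsp (0.18, limma adjusted p = 0.052) and Esrp2 (0.17, adjusted p = 0.24) did not pass with shSerpine2-2 alone. 7 of the 35 genes passed in none of the 9 comparisons made, Crb3, Evpl, Grhl2, Llgl2, Ovol1, Pkp1 and Pkp3, where 39.8% of all tested genes passed in none. Leaving out a library moved the number called. It was 5, 7 and 4 with shSerpine2-1 without control library B or its own library A or B, and 10 with shSerpine2-2 without either control or either of its own libraries. With shSlpi-1 it was 11 without control library A.

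The 2 hairpins of a target were also set against each other. Between shSerpine2-1 and shSerpine2-2, 2 genes were higher with shSerpine2-1, Dsp by 0.30 (adjusted p = 0.0058) and Pkp2 by 0.37 (adjusted p = 0.0028) on the log2 scale, and Epcam was lower by 0.21 (adjusted p = 0.015), where 6.98% of all tested genes were higher, 7.69% lower and 14.7% differed in either direction. The count of 3 was 1 without shSerpine2-1 library A or B or shSerpine2-2 library A, and 9 without either shSlpi-2 library. Between shSlpi-1 and shSlpi-2, 10 of the 35 genes were lower with shSlpi-1 and 0 higher. Of all tested genes, 12.3% were lower, 13.7% higher and 26.1% differed in either direction. The share of the 35 that differed in either direction was thus near that of all tested genes. At an unadjusted p under 0.05, limma had 1 higher, and voom on the recovered reads called 1 higher. The 10 lower genes were Cldn3, Cldn4, Cldn12, F11r, Lsr, Dsp, Dsg2, Jup, Epcam and Mal2, so that 5 of the 9 tight junction membrane proteins and 3 of the 9 desmosome genes were among them. The widest gap was that of Cldn4, -1.07 ± 0.12 (adjusted p = 1.2e-05). The share of reads in Rn45s differed between these lines as well (1.96% and 1.89% against 6.88% and 6.91%), and its part in the differences was not tested.

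Compared directly, with the control libraries entering the estimate of the spread and not the difference, 13 genes were lower with the Serpine2 hairpins than with the Slpi hairpins and 2, Tjp1 and Ppl, were higher, where 7.21% of all tested genes were lower and 10.3% higher. The 13 were Cdh1, Epcam, Ocln, F11r, Cldn3, Cldn4, Cldn7, Marveld3, Lsr, Cgn, Dsp, Dsg2 and Esrp1. Among them, the log2 difference ran from -0.68 ± 0.083 for Cldn4 (adjusted p = 4.4e-05) to -0.11 ± 0.031 for Cdh1 (adjusted p = 0.021), with Epcam at -0.30 ± 0.038 (adjusted p = 5.9e-05) and Cgn at -0.28 ± 0.052 (adjusted p = 0.0018). Tjp1 was 0.17 ± 0.034 (adjusted p = 0.0025) and Ppl 0.32 ± 0.063 (adjusted p = 0.0027). Of the 9 genes that passed with Slpi and not with Serpine2 lowered, Cldn4, Cldn7, F11r, Lsr and Marveld3 differed in this direct test, while Dsc2, Grhl1, Myo5b and Rab25 did not pass it, nor did Esrp2. When each of the 10 libraries was left out in turn, Cldn7, Marveld3 and Ocln lost their call in most fits. Cdh1 and Lsr lost it in some, and the others of the 15 in none. Leaving out either control library lost Cldn7, Marveld3 and Ocln, and a fit of only the 8 libraries compared kept 13 of the 15, without Marveld3 and Ocln.

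Fewer of these differences were called without shSlpi-2. Without both of its libraries, an alternative chosen after the data were seen, 6 genes were called, 3 lower and 3 higher, of which 5 were among the 15 (Epcam, Cgn, Esrp1, Tjp1 and Ppl). In the comparison of Slpi with shRenilla the same step left 18 genes that rose and 2 that fell, and 18 of the 23 calls were kept, those lost being Cldn4, Dsc2, Grhl1, Lsr and Marveld3. The log2 difference of shSlpi-1 alone, beside that of both hairpins, was 0.15 against 0.68 for Cldn4, 0.11 against 0.29 for Lsr, 0.21 against 0.34 for Dsc2, 0.26 against 0.38 for Marveld3 and 0.94 against 1.09 for Grhl1. In proportion, the difference shrank most for Cldn4 and Lsr and least for Grhl1. With each line as 1 unit, limma called 0 members in the direct comparison and 5 were at an unadjusted p under 0.05.

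Other genes of the same structures were counted in the same fit, in which 10.7% of all tested genes rose and 10.8% fell with Serpine2 lowered and 16.5% rose and 18.3% fell with Slpi lowered. Among further tight junction genes, the cingulin relative Cgnl1 and the angiomotin-like gene Amotl2 (0.26 and 0.32 on the log2 scale with Serpine2 and Slpi lowered) rose in both comparisons with shRenilla, and the scaffold Magi1 fell in both (-0.29 and -0.40). Of 12 further adherens junction genes, 4 rose in both comparisons (Ajuba, Mllt4, Pvrl1 and Pvrl2), and 1 fell with Serpine2 and 2 with Slpi lowered, the nectin gene Pvrl3 in both (-0.16 and -0.34). Of 9 further desmosome and hemidesmosome genes, Perp (0.17 and 0.31), Pkp4 (0.15 and 0.24) and Plec (0.31 and 0.23) rose in both and Itga6 fell with Slpi lowered. Of 20 further polarity and traffic genes, 2 rose with Serpine2 lowered and 4 with Slpi lowered, among them Ezr, the ezrin of microvilli (0.33 and 0.27), and Myo5c fell with Slpi lowered (-0.42). The shares of this list that rose were near those of all tested genes. For shSlpi-1 alone, several of the Slpi differences did not pass: 0.13 for Cgnl1, 0.20 for Pvrl1, 0.12 for Pvrl2, 0.13 for Plec, -0.12 for Itga6 (against -0.14 with both hairpins) and -0.18 for Myo5c (adjusted p = 0.11, 0.27, 0.43, 0.10, 0.11 and 0.10).

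Further transcription and splicing factors of epithelia went down rather than up. Of 9 tested, 0 rose in either comparison, 4 fell with Serpine2 lowered and 5 with Slpi lowered. Of all tested genes, 10.7% and 16.5% rose and 10.8% and 18.3% fell. At an unadjusted p under 0.05, limma had 0 of the 9 higher with Serpine2 lowered and 0 with Slpi lowered. Tfap2a, a regulator of epithelial and luminal genes, was at 2079.7 and 2127 in shRenilla and between 1383 and 1780 in the 8 knockdown libraries. Gata3, the luminal mammary factor, was at 2045 and 2052 against 1513 to 1866, and Klf5 at 2090.2 and 2193 against 1540 to 1885. No knockdown library of these 3 genes reached the controls, and all passed in both comparisons (log2 -0.33 and -0.44 for Tfap2a, -0.23 and -0.36 for Gata3, -0.24 and -0.38 for Klf5). Rbm47 fell in both as well, and Klf4 with Slpi lowered.

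Of 12 tested mesenchymal genes and repressors of Cdh1, 0 rose and 2 fell in both comparisons. Of all tested genes, 10.7% and 16.5% rose and 10.8% and 18.3% fell. With Slpi lowered, the share of the 12 that fell was thus near that of all tested genes. At an unadjusted p under 0.05 limma had 0 of the 12 higher with Serpine2 lowered and 2 with Slpi lowered. Zeb2, an E-box repressor, was at 4759.9 and 5225 in shRenilla, 4722 and 4423 with shSerpine2-1, 3962 and 3797 with shSerpine2-2, 4091 and 3949 with shSlpi-1, and 3388 and 3653 with shSlpi-2. The shSerpine2-1 libraries lay below the lower control, library A by little, and those of shSlpi-2 lowest, and the log2 fold change was -0.24 ± 0.050 for Serpine2 (adjusted p = 0.0026) and -0.41 ± 0.050 for Slpi (adjusted p = 1.3e-05). With shSerpine2-1 alone Zeb2 was not called, and with shSerpine2-2 alone it fell. Taken by line, S100a4 rose with shSerpine2-2 (0.40, adjusted p = 0.031) and Fn1, fibronectin, with shSlpi-2 (0.18, adjusted p = 0.0057). Acta2, smooth muscle actin, was at 60.1 and 61.7 in shRenilla and between 15.3 and 49.4 in the knockdown libraries (-1.18 and -0.67 on the log2 scale, adjusted p = 0.0010 and 0.021), and shSlpi-1 alone gave -0.38 (adjusted p = 0.31). Of the single Serpine2 hairpins, Acta2 was called with shSerpine2-2 and not with shSerpine2-1. Zeb1 did not pass in either comparison over both hairpins. The fibroblast marker Pdgfra, at 896 and 873 in shRenilla and between 436 and 765 in the knockdown libraries, also fell in both. Of the 6 epithelial markers, Cdh1 and Epcam among them, 4 rose with Serpine2 lowered and 6 with Slpi lowered. Krt7 rose in both (0.68 and 0.89), while Krt18 and Krt19 were at 0.053 and 0.010 with Serpine2 lowered (adjusted p = 0.45 and 0.93) and rose with Slpi lowered (0.27 and 0.36), where shSlpi-1 alone gave 0.11 and 0.10 (adjusted p = 0.18 and 0.40). The part of Zeb2, or of the other inhibitor's level, in the rise of the junction genes was not tested.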

How the data were processed

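The members and the other gene lists were chosen with earlier results of these data known. The submitters' processing notes name Bowtie2, HTSeq, DESeq and the build mm10, which the authors used. No version, annotation or strand setting is given in the sources used here. The deposited table holds log2 values with a floor of 6.733366499 in each column, the shape that a variance-stabilizing transformation by the authors would give, although no label states one. Inverting it gave normalized counts, and dividing by the step in each library gave reads that were whole within 0.01 for 100% of values. The transformation flattens differences among low genes, so the inverted values were used.

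Genes with a mean of at least 10 (12299) were fitted by limma 3.58.1 (R 4.3.3) after taking log2 of the normalized count plus 1 (eBayes with a mean-variance trend, 5 group means over 10 libraries). This scale understates changes of low genes. P-values are two-sided and adjusted over all genes tested by the Benjamini-Hochberg method, and a gene under 0.05 is called. All groups share 1 estimate of the spread, to which shSlpi-2, the group whose libraries differed most (chi-square per degree of freedom 10.9, against 1.55 to 2.76), contributes.

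Comparisons were both hairpins of a target against shRenilla, each hairpin alone, hairpin against hairpin, and Serpine2 against Slpi. Every tested member was accounted for, members called in either comparison with shRenilla are given in every library, and of each other list up to 3 changed genes with the smallest p have values. A result of the further tight junction list is not reported here, and no count is given for that list. Exon lengths and overlaps are those of GENCODE M21 on GRCm38, and promoters those of RefSeq. Alternatives were other pseudocounts, filters and scalings, the deposited values, voom on the recovered reads, only the libraries compared, lines as units, a replicate block, and each library left out.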

Additional observations from a re-analysis of the deposited data

Results flagged for a closer look

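Members are set out here where the hairpins of 1 target differed from each other by limma's test of that difference (adjusted p under 0.05), in log2 units. With shSerpine2-1 minus shSerpine2-2, Dsp was 0.30, Pkp2 0.37 and Epcam -0.21. The Dsp libraries were at 2788 and 2840 against 2256 and 2322, those of Pkp2 at 1239 and 1218 against 933 and 963, and those of Epcam at 1498 and 1469.8 against 1688 and 1751. Dsp and Pkp2 were thus lower, and Epcam higher, with shSerpine2-2.

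With shSlpi-1 minus shSlpi-2, the tight junction genes stood at -1.07 for Cldn4, -0.50 for Cldn3, -0.40 for F11r, -0.35 for Lsr and -0.29 for Cldn12. Of the desmosome genes, Dsp was at -0.34, Dsg2 at -0.34 and Jup at -0.33. Epcam was at -0.18 and Mal2 at -0.55. In all 10 the shSlpi-2 libraries were the higher. These libraries also held the highest share of Rn45s reads and the lowest remaining Slpi (60.9 and 75.8, against 145 and 147 with shSlpi-1), and the part of either in these differences was not tested.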

How the results depend on the processing

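Other pseudocounts, upper-quartile scaling, the deposited values and voom on the recovered reads kept each of the 9 counts of called members within 1.5 times, as did quantile normalization and a filter at a mean of 50. With lines as units, 0 members were called in the comparisons of Serpine2 and Slpi with shRenilla and with each other. Without both shSlpi-2 libraries the count for Serpine2 against Slpi was 6. With no filter the counts were 7 for shSerpine2-1 and 9 for shSerpine2-2, and with only the libraries compared they were 10 for shSerpine2-1 against shSerpine2-2 and 5 for shSlpi-1 against shSlpi-2. Leaving out 1 library at a time gave 9 to 18 calls for Serpine2, 20 to 27 for Slpi, 10 to 17 for Serpine2 against Slpi, 4 to 17 for shSerpine2-1, 10 to 19 for shSerpine2-2, 11 to 21 for shSlpi-1 and 1 to 9 for shSerpine2-1 against shSerpine2-2. For the counts the cause was not tested, except that lines as units leave 5 units.

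The labels do not say whether the letters A and B pair the libraries. Deviations of the A libraries from their group means correlated between -0.073 and 0.072 across genes, which are not independent replicates. A pairing with a small effect could give such values too, so they do not settle the question. With the replicate block, 14 members were called for Serpine2, 23 for Slpi and 14 for Serpine2 against Slpi, where Marveld3 was lost.

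Of the members called in the comparisons with shRenilla, none changed direction under any alternative. Lsr, called in Serpine2 against Slpi, turned to 0.0073 without both shSlpi-2 libraries, where shSlpi-1 alone stands for Slpi. Some uncalled members changed sign, in log2 units. For Serpine2, leaving out 1 library gave Cldn4 -0.081 to 0.077, Crb3 -0.55 to 0.71, Evpl -0.098 to 0.42, Grhl2 -0.071 to 0.031, Llgl2 -0.037 to 0.14, Marveld3 -0.0014 to 0.15 and Pkp3 -0.10 to 0.0071, and quantile normalization gave Cldn4 0.016. For Slpi it gave Crb3 -0.20 to 1.43, Llgl2 -0.051 to 0.10, Pkp2 -0.094 to 0.023 and Pkp3 -0.13 to 0.017, and without both shSlpi-2 libraries Cldn12 was -0.028 and Pkp3 0.020. Depth limits Crb3, Grhl1, Rab25 and Ovol1, whose mean was 10.3 to 20.7.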

Other observations

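Vamp8, which encodes an endosomal SNARE protein of apical secretion and lies outside the 41 genes, was at 213 and 244 in shRenilla, 223 and 228 with shSerpine2-1, 271 and 310 with shSerpine2-2, 307 and 337 with shSlpi-1, and 458 and 433 with shSlpi-2. It rose with Slpi lowered (0.73 ± 0.091 on the log2 scale, limma adjusted p = 1.5e-05) and was at 0.17 ± 0.091 with Serpine2 lowered (adjusted p = 0.21). Myo5c, a motor of secretory granules, was lowest with shSlpi-2, at 661 and 602 against 990.3 and 996 in shRenilla.

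The gene of the tight junction scaffold Tjp3 lay below the limit for testing. Its libraries were at 2.11 and 2.20 in shRenilla, 2.23 and 6.97 with shSerpine2-1, 5.27 and 5.36 with shSerpine2-2, 5.04 and 5.20 with shSlpi-1, and 9.67 and 15.2 with shSlpi-2. The 2 control libraries were under the floor of 3 reads. When all genes were tested, Tjp3 was called with Slpi lowered, and Ehf, at 0 to 3.87 over the libraries, was called for Serpine2 against Slpi. Genes with a read numbered 15887 and 16040 in shRenilla, 17841 and 17701 with shSerpine2-1, and 15389 and 15630 with shSerpine2-2. They numbered 18366 and 17895 with shSlpi-1, and 19938 and 20253 with shSlpi-2. The summed level of the endothelial markers, all below a mean of 10, was at most 26.4 in shRenilla and at least 62.8 with shSlpi-2. It was 44.6 to 55.7 with shSerpine2-1, 11.4 to 19.9 with shSerpine2-2 and 34.3 to 42.3 with shSlpi-1. Whether Tjp3 and Ehf, or low tested members such as Grhl1, Rab25 and Elf3, changed apart from such a rise among low genes was not tested.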
